A study of Mus musculus with 16 samples.

Results

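Gpr17-positive precursors are cells of the oligodendrocyte lineage in which a transcript of the receptor gene Gpr17 was captured together with transcripts of oligodendrocyte precursor genes. They were taken from Drop-seq libraries (droplet single-cell RNA-seq that counts unique molecular identifiers, UMIs) of mouse cortex. A barcode was a member when it had 200 to 7000 detected genes, at least 1 Gpr17 UMI, at least 1 UMI summed over 7 precursor genes (Pdgfra, Cspg4, Tnr, Vcan, Lhfpl3, Cacng4 and Pcdh15) and at most 1 UMI summed over 8 genes of microglia, astrocytes, endothelial cells and fibroblasts (P2ry12, Cx3cr1, Aqp4, Gja1, Cldn5, Flt1, Col1a2 and Dcn). This gave 202 members among 24578 barcodes with 200 to 7000 genes in 14 libraries, out of 48000 barcodes in all 16 tables.

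The libraries came from mice aged 17 months. THY-Tau22 mice (TG in the labels) carry a mutated human tau transgene that the Thy1.2 promoter drives in neurons, so the members themselves lie outside the cell type in which the transgene is expressed by design, and the wild-type (WT) mice were littermates without it. Heterozygous males of the line were bred with C57Bl6/J females, and transgenic mice were heterozygous. Of the THY-Tau22 libraries 5 were from females and 3 from males, and of the WT libraries 3 were from each sex. The tables labelled WT male 3 and THY-Tau22 male 4 shared 2952 of their 3000 barcodes, against 3 to 12 in each other pair of tables, and both were left out, since the labels do not say which genotype the library has. The 14 libraries held 1041675 to 2237505 UMIs each. Numbers of members ran from 5 to 32 per library and their summed UMIs from 3502 to 38040. p-values measure the spread between these libraries. Where classes of cells from the same libraries are compared, they measure the spread of the difference within a library.

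Oligodendrocyte precursors divide through life in the adult brain, and a part of them leaves the cycle, becomes a committed precursor and then a myelinating oligodendrocyte. Gpr17 encodes a G protein-coupled receptor that couples to inhibitory G proteins and is known to be switched on late in the precursor stage and off again before myelin is made. Pdgfra, the receptor for platelet-derived growth factor, and Cspg4, the NG2 proteoglycan, mark the earlier precursor. Bcas1, Enpp6 (a choline phosphodiesterase), Fyn (a Src family kinase) and Bmp4 are known from the committed stage, and Mbp encodes myelin basic protein.

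Enpp6, a committed gene, and Pdgfra, an early precursor gene, are followed through single members further on, so the 250 bases upstream of each start site are shown, from RefSeq on GRCm38.p6, 5′ to 3′ on the plus strand. Capitals mark ACAAT, the core that SOX factors bind, searched on both strands (reverse complement ATTGT). Enpp6 lies on chromosome 8 and the window covers chr8:46986637-46986886. Pdgfra lies on chromosome 5 and the window covers chr5:75152001-75152250.
Enpp6: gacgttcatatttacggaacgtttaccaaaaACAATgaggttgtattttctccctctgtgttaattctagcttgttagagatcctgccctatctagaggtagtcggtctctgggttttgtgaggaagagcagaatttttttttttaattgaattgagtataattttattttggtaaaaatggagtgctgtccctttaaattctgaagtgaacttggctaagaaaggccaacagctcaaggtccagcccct
Pdgfra: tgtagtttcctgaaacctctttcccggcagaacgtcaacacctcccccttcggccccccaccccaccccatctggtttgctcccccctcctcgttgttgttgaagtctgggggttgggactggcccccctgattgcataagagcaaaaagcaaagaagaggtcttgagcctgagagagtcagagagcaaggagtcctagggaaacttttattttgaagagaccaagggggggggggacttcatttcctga
The Enpp6 window held 1 match, at position -219 from the start site, and the Pdgfra window held 0. Of 32851 promoter windows of the same length, 27.7% held the motif on either strand. The E-box CAGCTG, which is its own reverse complement, was in neither window and in 13.0% of all windows.

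The values that chose the members are given first, as a description. Most members were chosen by a single Gpr17 molecule: 158 of 202 had 1 Gpr17 UMI (78.2%), 32 had 2 and 12 had 3 or more, with 15 at the highest. Members with 1 Gpr17 UMI had a median of 699 UMIs in all, those with 2 had 997.5 and those with 3 had 1338.5, so the count rose with depth. The precursor condition was met with a wide margin in most members, with a median of 9 UMIs of the 7 genes, 4 or more of the genes detected in 130 members (64.4%), and 1 such UMI in 10 members. Just outside the rule stood 11 barcodes with Gpr17, no precursor UMI and at most 1 UMI of the excluded genes (median of 456 UMIs in all), and 9 barcodes with exactly 2 excluded UMIs (median of 1117). Of all 240 barcodes with a Gpr17 UMI, 84.2% were members.

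The markers of the class were checked next, as a description. Tnr (tenascin-R, an extracellular matrix glycoprotein) was detected in 153 of 202 members (75.7%, exact 95% interval 69.2 to 81.5), Cacng4 (an auxiliary subunit of AMPA receptors) in 73.3%, Vcan (versican) in 64.4%, Pdgfra in 55.9% and Lhfpl3 (a tetraspan membrane protein) in 55.0%. Cspg4 was found in 47.0% and Pcdh15 (a protocadherin) in 33.7%. Genes of the same lineage that the rule did not read were frequent too: Ptprz1, a receptor phosphatase of precursors, was detected in 85.1% of members, Olig1 in 60.9%, Olig2 in 37.1% and Sox10 in 17.8%. Mog and Opalin, which mark mature oligodendrocytes, were found in 2 members and 1 member. Of the excluded genes, P2ry12 and Dcn were at 0 and 23 members held 1 UMI of the others. Intervals cover counting error only.

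Gpr17 UMIs were most frequent in barcodes gated as precursors, and part of this follows from the gates. The precursor gate required precursor UMIs, and the gates of other cell types held only barcodes with none. Mixed barcodes with a precursor UMI thus could not count in the other gates. Among barcodes with at least 2 of the 7 precursor genes detected and at most 1 UMI of the excluded genes (called precursor-gated here), 183 of 1027 had a Gpr17 UMI (17.8%, exact 95% interval 15.5 to 20.3, median of 598 UMIs). The share was 0.146% in astrocyte-gated barcodes (6 of 4122, median of 606 UMIs), 0.109% in endothelial barcodes (3 of 2759, median of 718), 0.0997% in mature oligodendrocytes (4 of 4013, median of 592) and 0.0595% in microglia (4 of 6724, median of 550). Whether these few UMIs came from free RNA, from doublets or from the cells themselves was not tested.

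Members were then compared with their nearest neighbours in the lineage. Gpr17-negative precursors had no Gpr17 UMI and at least 2 of the 7 precursor genes (844 barcodes), and mature oligodendrocytes had no Gpr17 or precursor UMI and at least 3 UMIs of Mog, Mag, Mobp, Cldn11, Ermn and Opalin (4009 barcodes). Both classes met the same limit on excluded genes. Median UMIs were 738.5 in members, 575 in Gpr17-negative precursors and 592 in mature oligodendrocytes.

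**Figure D1:**
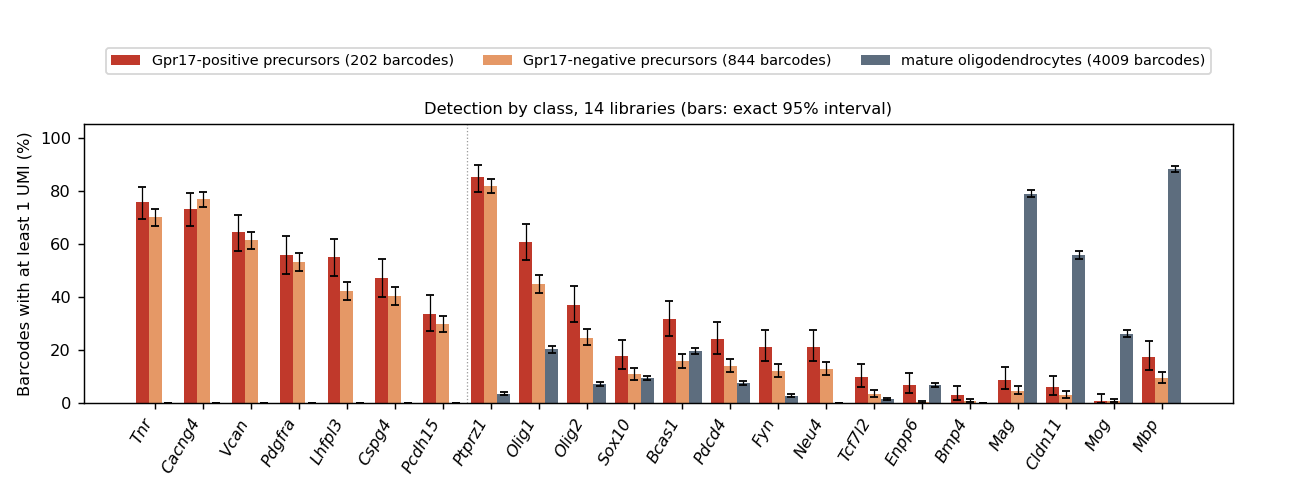
Share of barcodes with at least 1 UMI of each gene (y axis, percent) in the 3 classes, all 14 libraries pooled, with exact 95% intervals that cover counting error only. The dotted line parts the 7 precursor genes that the classes were chosen on (left) from the others, of which Mag, Cldn11 and Mog chose the mature class. On the left, where both precursor classes were chosen with different minimums, Lhfpl3 is at 55.0% in members and 42.3% in Gpr17-negative precursors, and on the right Bcas1 was detected in 31.7% against 15.8% and Enpp6 in 6.93% against 0.355%.

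Few genes were called between both precursor classes. The negative class was set by the lack of a captured Gpr17 UMI, and 158 of 202 members had only 1. Members were also deeper, with a median of 738.5 UMIs against 575 in Gpr17-negative precursors. A Gpr17-negative barcode may therefore be a cell whose Gpr17 RNA was missed, so few calls cannot show that the classes are alike. How many such cells the negative class holds was not tested. UMIs were summed per library and class and tested with edgeR's quasi-likelihood test, with the library as a block. Calls needed an adjusted p under 0.05 (Benjamini-Hochberg) and a log2 fold change of 0.5 or more in either direction. Of 1237 genes tested, leaving out those the rule used, 11 were called (0.889%). In the members 6 genes were higher (0.485%) and 5 lower (0.404%). The split rests on the scaling: 6 were higher and 3 lower with library totals, 2 higher and 9 lower with trimmed mean (TMM) factors set library by library, and 2 higher and 8 lower with DESeq2. Levels are given as UMIs per 10000 UMIs of the class in a library.

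The higher genes were led by Pdcd4, which encodes an inhibitor of translation initiation. Its level was 7.39 ± 9.36 per 10000 (SD, n = 14 libraries) in members and 2.34 ± 0.94 in Gpr17-negative precursors, which is 1.48 ± 0.26 on the log2 scale (SE; adjusted p = 4.46e-06 by edgeR). Over the libraries the members' level had a lowest value of 0, a median of 5.41 and a highest of 36.1, the last in WT female 3. Bcas1, which marks early myelinating cells, had a level of 6.99 ± 5.52 in members and 2.97 ± 1.16 in the negative class (log2 fold change 1.24 ± 0.24, edgeR adjusted p = 0.000143). The median Bcas1 level of members was 5.39 and the highest 22.6, again in WT female 3.

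Fyn, the kinase that relays axonal signals in oligodendrocytes, was higher by 1.06 ± 0.28 on the log2 scale (edgeR adjusted p = 0.0221). Sirt2, a deacetylase abundant in oligodendrocytes, was higher by 0.93 ± 0.25 (edgeR adjusted p = 0.0309). Tuba1a, an alpha-tubulin, was higher by 0.79 ± 0.22 (edgeR adjusted p = 0.0311). Bcas1, Fyn and Sirt2 belong to the list of committed precursor genes, of which 7 could be tested: 3 of 7 were called higher and 0 lower, with a median log2 fold change of 0.55 against -0.01 for all genes tested. Of 13 cytoskeleton genes tested Tuba1a alone was called. With per-library TMM factors or DESeq2, Fyn, Sirt2 and Tuba1a were not called, which left 1 of 7 committed and 0 of 13 cytoskeleton genes. Without WT female 3, 6 genes were called and Fyn, Sirt2, Tuba1a and Atp1b1 were not among them. Of the members 13 (6.44%) and of the Gpr17-negative precursors 26 (3.08%) held 3 or more UMIs of the mature oligodendrocyte genes.

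Among the 5 lower genes were Meg3 and Snhg11, long noncoding RNAs abundant in neurons. Meg3 had a level of 5.63 ± 2.77 in members and 23.1 ± 29.3 in Gpr17-negative precursors (log2 fold change -1.83 ± 0.21, edgeR adjusted p = 8.73e-16), and Snhg11 a log2 fold change of -1.23 ± 0.28 (adjusted p = 0.00236). Meg3 reached 118.0 per 10000 in 1 library of the negative class and no more than 9.11 in any library of members. The summed level of the 10 neuron genes was 10.8 ± 4.1 in members, with 2 of them at 0, and 37.1 ± 44.6 in the negative class, and 27 members (13.4%) and 99 Gpr17-negative precursors (11.7%) held 3 or more neuron UMIs. Meg3 and Snhg11 are themselves in that list, so the next values follow in part from the choice. When barcodes with 3 or more UMIs of the neuron list or of the mature oligodendrocyte genes were left out, the log2 fold change of Meg3 was -0.11 and that of Snhg11 0.19, with 12 libraries and 654 genes left to test.

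The other lower genes were Atp1b1, a subunit of the sodium-potassium pump (log2 fold change -1.19 ± 0.34, edgeR adjusted p = 0.0453), Ppp3ca, the catalytic subunit of calcineurin (-0.93 ± 0.27, adjusted p = 0.0453), and mt-Rnr1, the small mitochondrial ribosomal RNA (-0.68 ± 0.15, adjusted p = 0.00129). Ppp3ca is abundant in neurons too, and its log2 fold change was 0.01 without the mixed barcodes, while that of mt-Rnr1 was -0.63 (adjusted p = 0.00275). No gene was called among the 20 precursor genes tested (median log2 fold change 0.11), the 9 lineage transcription factors (0.13), the 14 matrix and guidance genes (0.05), the 11 receptor and channel genes (-0.13), the 4 genes of inhibitory G protein and cyclic AMP signalling (-0.24), the 6 immediate early genes (-0.13), the 9 chaperones (0.21), the 20 ribosomal protein genes (0.18) or the 6 mitochondrial mRNAs (-0.47). Of the cell cycle list 1 gene and of the lipid synthesis list 1 gene could be tested, and neither was called. Of the interferon and MHC list 2 genes, of the astrocyte list 5 and of the endothelial and mural list 1 were tested, with 0 called, and no microglia or fibroblast gene passed the filter. With per-library TMM factors or DESeq2, 2 of the 6 mitochondrial mRNAs and 1 of the 5 astrocyte genes were called lower. Mki67, a marker of dividing cells, was found in 4 of 202 members and 5 of 844 Gpr17-negative precursors.

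**Figure D2:**
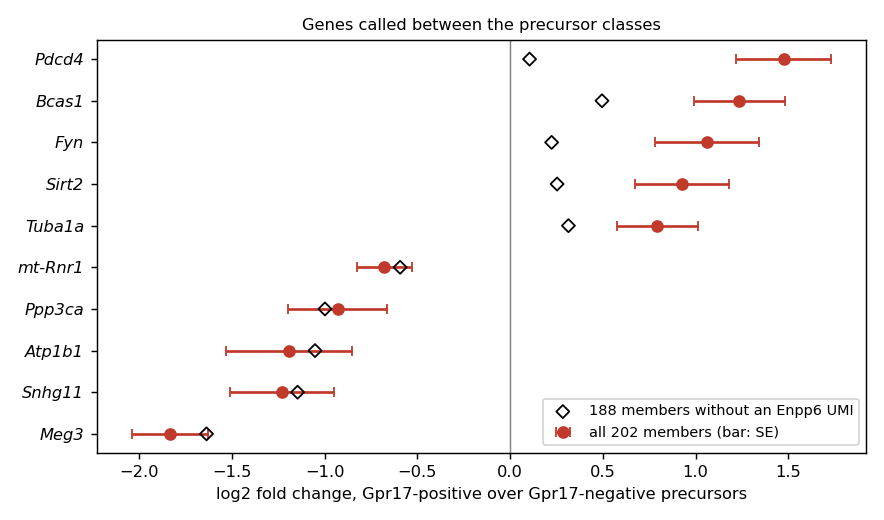
log2 fold change (x axis) of 10 genes called between Gpr17-positive and Gpr17-negative precursors, with all 202 members (filled, bar: SE) and with the 188 members that had no Enpp6 UMI (diamonds). The 5 genes on the right move toward 0, and the 5 genes on the left remain below 0.

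The higher genes were not called once few cells were left out. These cells were picked by Enpp6, a committed gene, and were taken from the members only. The 3 Gpr17-negative precursors with Enpp6 stayed, so the lower folds of committed genes follow in part from the choice. With the 14 members that held an Enpp6 UMI left out, 5 genes were called, 0 of them higher. Among the 188 remaining members the log2 fold change was 0.10 for Pdcd4, 0.50 for Bcas1, 0.22 for Fyn, 0.25 for Sirt2 and 0.31 for Tuba1a, while that of Meg3 was -1.64.

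To describe these cells, the 202 members were ranked by their summed UMIs of 7 committed markers (Bmp4, Neu4, Enpp6, Bcas1, Fyn, Tcf7l2 and Nkx2-2). Of these, 91 members had 0 such UMIs and 21 had 3 or 4, while 4 members had 5 to 7, none had 8 to 10 and 12 had 11 or more, up to 38. A line was drawn at 5 UMIs after these values were seen, so the 16 members above it (7.92%, exact 95% interval 4.60 to 12.5) are described with no test and called committed members here. Among Gpr17-negative precursors 9 of 844 lay above the same line (1.07%) and among mature oligodendrocytes 11 of 4009 (0.274%). The committed members were deeper, with a median of 1636 UMIs against 718 in the other 186 members, which raises the chance of passing a fixed count.

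The 16 committed members carried another set of precursor genes than the rest. None had a Pdgfra UMI, whereas 113 of the other 186 members did (60.8%), although the committed members were deeper. Per 10000 UMIs, Cspg4 was at 0.349 in committed and 9.09 in other members, Cacng4 at 3.49 and 26.3, Lhfpl3 at 1.74 and 12.7, and Pcdh15 at 0.349 and 6.18. Tnr went the other way, at 47.4 in committed and 23.7 in other members, and Vcan was close (11.9 and 15.4). Tnr was detected in 15 of the 16 committed members and Vcan in 12, but Cacng4 in 3 and Lhfpl3 in 4, so the rule took these cells in mostly by the first pair. All 7 precursor genes and Gpr17 are part of the rule.

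Among genes outside the rule, several of the precursor list were low in the committed members. Ptprz1 was at 4.53 per 10000 in committed and 42.3 in other members, Cspg5 (neuroglycan C) at 0 and 19.2 and C1ql1, a secreted precursor protein, at 0.349 and 3.46. Of the lineage transcription factors, Olig1 was at 2.79 and 16.6, while Olig2 differed less, at 4.53 and 6.55. Genes shared by both sets were Bcan (brevican, 9.07 and 8.41), Marcks (34.2 and 26.3) and the AMPA receptor subunit gene Gria2 (22.7 and 17.7). Sox10 was sparse in both, with 5 UMIs in committed and 39 in other members.

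Enpp6 was almost confined to the committed members. It was detected in 13 of 16 committed members and in 1 of the other 186, and 65 of its 66 UMIs (98.5%) fell in the former. They also held 79.8% of the members' Pdcd4 UMIs, 81.9% of Epb41l2 (a membrane skeleton protein), 77.6% of Nfasc (neurofascin, a cell adhesion molecule of axon and glia contacts), 76.4% of Lcorl and 70.8% of Fyn, from 15.1% of all member UMIs. Bcas1, Fyn, Enpp6 and Bmp4 were used to draw the line, so their excess follows from it in part, while Pdcd4, Epb41l2, Nfasc and Lcorl were not used.

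Their myelin genes were uneven. Mbp was at 29.3 per 10000 in committed and 2.47 in other members, with at least 1 UMI in 13 of 16 and in 22 of 186. In barcodes gated on microglia genes, a cell type that should lack Mbp, it was at 0.660 to 5.40 over the libraries, a range that holds the level of the other members. Cnp (a myelin enzyme) was at 11.2 and 1.36, Mag (myelin-associated glycoprotein) at 7.32 and 1.05 and Cldn11 (a myelin tight junction protein) at 5.93 and 0.371. In contrast Mobp, Mal and Opalin, genes of mature myelin, had 0 UMIs in the 16 committed members, and Mog and Ermn had 1 UMI each. Gpr17 itself, which chose them all, was at 17.4 per 10000 in committed and 13.9 in other members, with 2 or more UMIs in 12 of 16 and in 32 of 186.

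**Figure D3:**
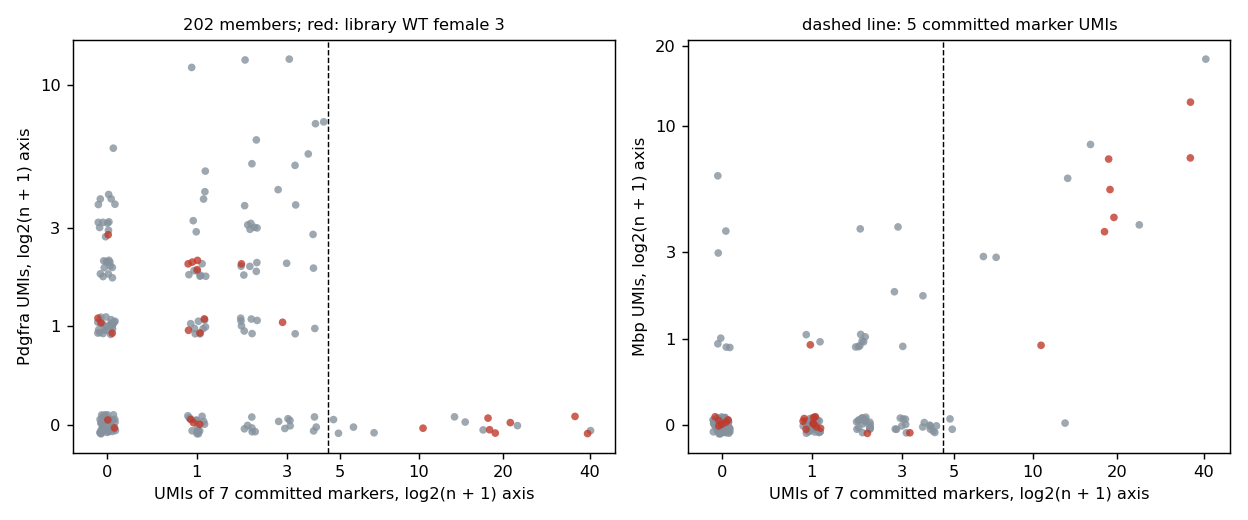
Each point is 1 of the 202 members, with the UMIs of 7 committed markers on the x axis and of Pdgfra (left) or Mbp (right) on the y axis, both on a log2(n + 1) axis with small random shifts. The 16 members right of the dashed line have 0 Pdgfra UMIs, 13 of them hold an Mbp UMI, and 7 of them are from the library WT female 3 (red).

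Against mature oligodendrocytes the members differed widely, as the gates took opposite ends of the lineage. Of 3641 genes tested 1192 were called (32.7%), 493 higher (13.5%) and 699 lower (19.2%) in members. The folds describe the gates. This split also rests on the scaling: 41.4% of calls were higher as reported, 57.9% with library totals (716 higher, 521 lower), 21.8% with per-library TMM factors (296 higher, 1063 lower) and 19.3% with DESeq2 (261 higher, 1089 lower). The median log2 fold change of all genes was -0.07 as reported, 0.17 with library totals, -0.42 with per-library TMM factors and -0.51 with DESeq2.

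Precursor genes that no gate read were nearly all higher. Of 16 tested, 15 were called higher and 0 lower, with a median log2 fold change of 3.42. Under the other scalings 14 or 15 of the 16 were called higher. Ptprz1 was at 36.7 ± 6.9 per 10000 in members and 0.63 ± 0.25 in mature oligodendrocytes (SD, n = 14), and the lowest library of members (27.3) was above the highest of the other class (1.16), which is 5.62 ± 0.18 on the log2 scale (SE; adjusted p = 8.06e-211 by edgeR). Serpine2, a protease inhibitor, was higher by 5.24 ± 0.20 and Cspg5 by 5.06 ± 0.22. Outside this list, the astrocyte and precursor endothelin receptor gene Ednrb was higher by 5.54 ± 0.26. C1ql1 had 57 UMIs in members and 0 in mature oligodendrocytes, so no fold is given for it.

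Other genes were higher as well, by the size of their p and outside any 1 list. Marcks, a substrate of protein kinase C, was higher by 5.38 ± 0.19, Cntn1 (contactin 1) by 5.15 ± 0.25, Bcan by 4.73 ± 0.26, Fabp7 (a fatty acid binding protein of glial precursors) by 6.19 ± 0.34, Tmem100 by 6.15 ± 0.31 and 3110035E14Rik by 6.78 ± 0.33. Gria2 was at 17.6 ± 7.4 in members and 0.82 ± 0.35 in mature cells (log2 fold change 4.18 ± 0.20). Of the receptor and channel list 5 of 6 tested genes were called higher, among them Gria3 (4.94 ± 0.36) and the metabotropic glutamate receptor gene Grm5 (4.51 ± 0.40), and of the matrix and guidance list 6 of 11, with 0 lower in either. The edgeR adjusted p of Bcan was 2.82e-70, and those of Gria3 and Grm5 were 3.23e-41 and 4.73e-28.

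Myelin genes were the reverse. All 18 that could be tested were called lower in members, also with library totals, per-library TMM factors and DESeq2, with a median log2 fold change of -4.42. Mbp was lower by 3.25 ± 0.18 on the log2 scale (log2 fold change -3.25), and the carbonic anhydrase gene Car2 (-4.80 ± 0.21), Mal (-5.50 ± 0.25), the lipocalin gene Apod (-5.78 ± 0.26), Trf (transferrin, -5.14 ± 0.27), Sept4 (a septin of the myelin sheath, -4.77 ± 0.29) and Cryab (a small heat shock protein, -3.31 ± 0.21) were lower as well. Outside that list Fth1 (ferritin heavy chain) had a log2 fold change of -4.56 ± 0.17, Ptgds (prostaglandin D synthase) of -4.44 ± 0.20, App of -2.65 ± 0.17 and Gm21984 of -5.90 ± 0.37. Without members that held 3 or more UMIs of the neuron list or of the genes that chose the mature class, which lowers myelin genes in part by choice, the log2 fold changes were larger, at -7.29 for Car2, -8.01 for Mal, -7.23 for Trf and -9.98 for Gm21984, and -3.94 for Mbp.

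Committed genes were called in both directions. Of 10 tested, 7 were called higher than in mature cells and 2 lower, Chn2 (-0.84 ± 0.25) and Arpc1b (-1.31 ± 0.55). The counts were 8 higher and 0 lower with library totals and 4 higher and 2 lower with per-library TMM factors or DESeq2. Fyn was higher by 3.22 ± 0.27 and Itpr2, an intracellular calcium channel, by 2.91 ± 0.28. Enpp6 had a log2 fold change of 0.82 ± 0.29 (edgeR adjusted p = 0.0173), with a mean of 2.28 ± 3.58 per 10000 in members and 1.27 ± 0.33 in mature oligodendrocytes, but a median of 1.13 and 1.32. Its log2 fold change was 0.31 without WT female 3 (edgeR adjusted p = 0.54) and 0.59 without WT male 1 (edgeR adjusted p = 0.15). Without members that held 3 or more UMIs of the neuron or mature oligodendrocyte genes it was 0.23 (edgeR adjusted p = 0.71). It was 0.37 with per-library TMM factors (edgeR adjusted p = 0.36) and -0.45 with DESeq2 (adjusted p = 0.52), so no direction is read from it. Gpr17-negative precursors held 5 Enpp6 UMIs in 3 of 844 barcodes. In mature oligodendrocytes Enpp6 ran from 0.81 to 1.90 per 10000 over the 14 libraries and was detected in 273 barcodes, whereas in members it ran from 0 to 13.2.

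Transcription factor genes were split by stage. Of 10 tested, Sox4 (5.69 ± 0.35), Sox2 (2.84 ± 0.25), Id2 (2.75 ± 0.34), Olig2 (2.21 ± 0.23), Olig1 (1.70 ± 0.18) and Sox8 (1.36 ± 0.34) were called higher in members, and Nkx6-2 (-3.18 ± 0.53), Myrf, the activator of myelin genes (-2.09 ± 0.55), and Zfp536 (-1.47 ± 0.51) lower. Ccnd1 (cyclin D1) was the only gene of the cell cycle list called, higher by 5.31 ± 0.31, with 2 more tested. Of the inhibitory G protein and cyclic AMP list, in which Gpr17 itself signals, 4 of 11 were called lower and 0 higher: Gnai1 (-3.22 ± 0.32), the kinase subunit gene Prkacb (-1.69 ± 0.37), the phosphodiesterase gene Pde4b (-1.68 ± 0.36) and Gnao1 (-1.50 ± 0.26). Among all genes tested 32.7% were called and 19.2% were lower, so no shift of this list is read from the count. With library totals 4 were lower and 1 higher, and with per-library TMM factors or DESeq2 6 were lower and 0 higher.

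Other lists followed, given relative to the median of all genes. The lipid synthesis genes had 8 of 13 called lower, among them the galactolipid enzymes Ugt8a (-2.48 ± 0.27) and Fa2h (-3.06 ± 0.40), and a median 1.18 below that of all genes (-1.18), with like values of -1.18 and -1.11 for library totals and per-library TMM factors. Mitochondrial mRNAs had 6 of 7 called lower (median -0.78 relative to all genes), ribosomal protein genes 19 of 53 lower and 1 higher (-0.53), chaperones 3 lower and 1 higher of 10 (-0.27) and immediate early genes 5 of 13 higher (0.54). With per-library TMM factors the calls were 6 of 7, 32 lower and 1 higher, 6 lower and 0 higher, and 1 higher. Cytoskeleton genes were called in both directions, 6 higher and 6 lower of 15, with Stmn1 (stathmin, -3.74 ± 0.36) and Tubb4a (a beta-tubulin of oligodendrocytes, -2.61 ± 0.30) among the lower. Of the interferon and MHC list all 3 genes tested were called higher and with per-library TMM factors 0. Of the markers of other cell types, the astrocyte genes Slc1a2 (0.67 ± 0.20) and Clu (1.95 ± 0.24) and the neuron genes Snap25 (1.60 ± 0.41), Meg3 (0.81 ± 0.22) and Snhg11 were called higher and the microglia gene Ctss lower, out of 6, 3 and 3 tested. With per-library TMM factors the counts were 1 astrocyte, 2 neuron and 1 microglia gene. The summed level of the 10 astrocyte genes was 20.6 ± 7.5 in members, 26.8 ± 5.2 in Gpr17-negative precursors and 9.80 ± 2.96 in mature cells. Aqp4 and Gja1 are among these genes and were limited by the gates of all classes. The part of the astrocyte genes in these folds was not tested.

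The frequency of members was compared between genotypes next. A share of barcodes with a Gpr17 UMI depends on depth, and fewer such cells cannot be told apart from less Gpr17 RNA per cell. In WT males the share of kept barcodes was 0.594, 0.778 and 0.350%, and in THY-Tau22 males 0.430, 0.963 and 0.790%. In WT females it was 0.716, 0.803 and 1.05%, and in THY-Tau22 females 1.38, 0.581, 0.641, 0.487 and 1.50%. The groups overlapped in both sexes. The difference of THY-Tau22 minus WT was 0.154 percentage points in males (exact permutation test, two-sided, p = 0.40), 0.0591 in females (p = 0.82, exact) and 0.106 over both sexes (p = 0.53, exact), and the smallest p the design allows is 0.10 in males and 0.0179 in females. Over the 6 comparisons of shares the adjusted p was 0.80 to 0.82.

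The Gpr17 share of precursor-gated barcodes was more uneven. It was 13.9, 12.0 and 5.41% in WT males, 11.3, 21.5 and 38.5% in THY-Tau22 males, 15.8, 43.8 and 20.5% in WT females, and 23.8, 8.14, 21.0, 10.2 and 29.2% in THY-Tau22 females. The highest values, 43.8% in WT female 2 and 38.5% in THY-Tau22 male 3, rested on 16 and 26 gated barcodes, the fewest among the 14 libraries. The difference was 13.3 percentage points in males (exact permutation test, p = 0.30), -8.22 in females (p = 0.39, exact) and 2.56 over both sexes (p = 0.70, exact). Thinning to 300 UMIs used the 23823 of 24578 kept barcodes that had at least 300 UMIs. The group means of this share were then 4.54 and 10.5% in WT and THY-Tau22 males and 15.1 and 9.54% in WT and THY-Tau22 females.

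**Figure D4:**
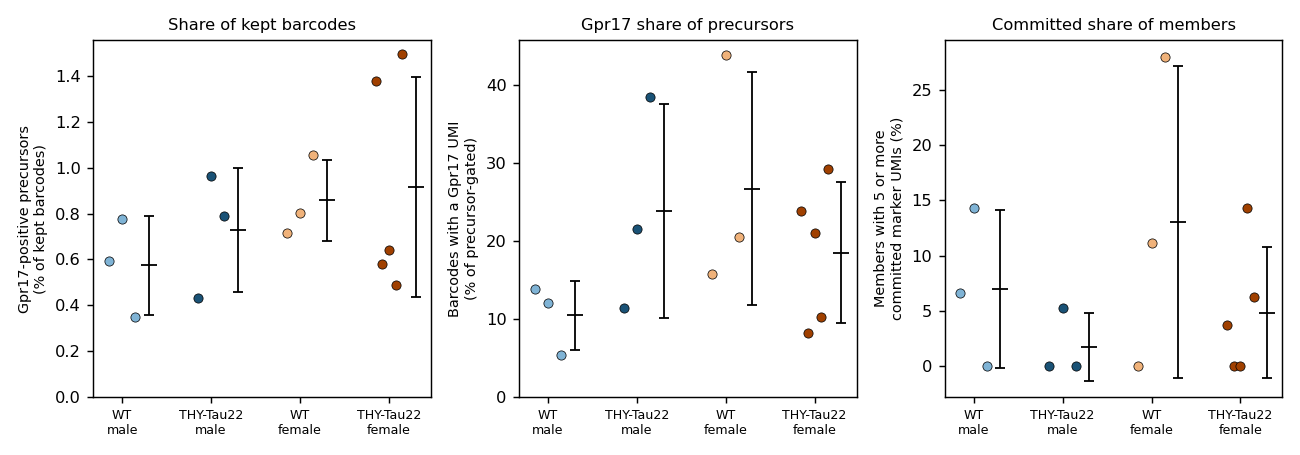
Members as a percent of kept barcodes (left), barcodes with a Gpr17 UMI as a percent of precursor-gated barcodes (middle) and members with 5 or more committed marker UMIs as a percent of members (right), per library (points), with the mean and SD of each group beside them. The groups overlap in each plot, and the highest committed share, 28.0%, is that of WT female 3.

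Committed members were spread unevenly over libraries. Of the 16, 11 were in WT libraries (which held 78 members) and 5 in THY-Tau22 libraries (124 members), and 7 of the 11 were in WT female 3 alone, where they made 28.0% of 25 members. The committed share was 6.67, 14.3 and 0% in WT males, 0, 5.26 and 0% in THY-Tau22 males, 0, 11.1 and 28.0% in WT females and 3.70, 0, 0, 14.3 and 6.25% in THY-Tau22 females, so groups overlapped. No test was made, because the line was drawn on these cells. The mean difference over both sexes was -6.71 percentage points and was -2.97 without WT female 3, against a within-group SD of 8.57. In females the difference was -8.19, and -0.71 without WT female 3, and in males it was -5.23.

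Expression in members was then compared between genotypes, with the groups of both sexes in 1 edgeR fit of summed UMIs over 897 genes. Few genes were called: 1 lower in THY-Tau22 males (0.111%), 5 lower in females (0.557%), 1 higher and 5 lower over both sexes (0.669% in all), and 2 for the sex by genotype interaction (0.223%). At an unadjusted p under 0.05 there were 58, 54, 54 and 56 genes. DESeq2 called 0 in all 4 contrasts, with 37, 28, 37 and 40 genes at an unadjusted p under 0.05.

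The lower genes were mostly those with most of their UMIs in committed members. In females Epb41l2 (log2 fold change -2.43 ± 0.59, edgeR adjusted p = 0.0171), Enpp6 (-2.60 ± 0.65, 0.0197), Nfasc (-2.29 ± 0.59, 0.0254) and Lcorl (-2.39 ± 0.64, 0.0305) were lower in THY-Tau22. Over both sexes Nfasc (-3.13 ± 0.59, edgeR adjusted p = 0.000105), Pdcd4 (-1.85 ± 0.40, 0.00136), Enpp6 (-2.97 ± 0.65, 0.00136), Arhgap5, a GTPase-activating protein (-1.81 ± 0.48, 0.0305), and Mbp (-1.56 ± 0.42, 0.0305) were lower. The one higher gene, Ttc4, a co-chaperone, was called on 39 UMIs in all (edgeR adjusted p = 0.0250).

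The levels differed between libraries of a group. The share of all genes tested whose groups do not overlap is not given. Overlap or its lack, here and below, is therefore a description of called genes and not a result. Enpp6 per 10000 UMIs was 5.30, 3.52 and 0 in WT males, 0, 0.69 and 0 in THY-Tau22 males, 1.96, 3.90 and 13.2 in WT females and 1.75, 0, 0, 0 and 1.58 in THY-Tau22 females. Of its 66 UMIs 38 were in WT female 3. WT females lay above THY-Tau22 females without overlap, while WT male 4, with 0, overlapped the THY-Tau22 males. The lowest WT female value, 1.96 in WT female 1, was 1 UMI in 1 member. That of WT female 2 was 3 UMIs in 1 member, and 1.75 in THY-Tau22 female 1 was 4 UMIs in 1 member. The gap in females thus hung on 1 molecule. Pdcd4 was 17.5, 7.04 and 6.14 in WT males and 1.37, 3.45 and 2.04 in THY-Tau22 males, and 0, 3.90 and 36.1 in WT females and 6.58, 0, 5.04, 8.57 and 5.78 in THY-Tau22 females, so the groups were apart in males and overlapped in females. Of 203 Pdcd4 UMIs 104 came from WT female 3.

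Nfasc was 10.6, 2.35 and 0 in WT males, 0, 0.69 and 0 in THY-Tau22 males, 7.85, 3.90 and 13.9 in WT females and 2.63, 1.71, 0, 0 and 2.10 in THY-Tau22 females, so the groups were apart in females and overlapped in males. Mbp was 11.8, 6.51 and 14.6 in WT females and 1.75, 0, 1.01, 0 and 6.05 in THY-Tau22 females, without overlap, and 14.3, 4.69 and 0 in WT males and 1.37, 6.21 and 1.36 in THY-Tau22 males, with overlap. These Mbp levels were under that of microglia-gated barcodes of the same library in 6 of 8 THY-Tau22 and 1 of 6 WT libraries. Ttc4 was at 0 in all 3 WT males and at 4.10, 3.45 and 6.13 in THY-Tau22 males, from 3, 5 and 9 UMIs, so no fold is read from it in males.

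The calls depended on few cells and single libraries. With the 14 members that held an Enpp6 UMI left out, 1 call was left in males and 2 for the interaction, with 0 in females and 0 when the sexes were pooled. This choice takes away all Enpp6 UMIs and 13 of the 16 committed members. The loss of Enpp6, and in part of genes with most UMIs in those members, follows from it. Without WT female 3 there were 0 calls over both sexes and 3 in females, 2 of them higher and 1 lower. The log2 fold changes over both sexes were then -2.74 for Nfasc, -2.30 for Enpp6 and -1.39 for Mbp, and shrank to -0.47 for Pdcd4 and -0.91 for Arhgap5 (edgeR adjusted p = 0.14 to 0.98). In females those without WT female 3 were -1.55 for Epb41l2, -1.42 for Nfasc, -1.20 for Enpp6 and -0.96 for Lcorl (edgeR adjusted p = 0.65 to 0.89). Without WT male 1 there were 0 over both sexes and 0 in males. The labels set WT female 3 and THY-Tau22 female 5 apart by the code MB22, whose meaning they do not state, and without this pair there were 4 calls in females (2 higher, 2 lower) and 0 over both sexes. None of these genes was called for the sex by genotype interaction: that of Enpp6, male minus female, was -0.74 ± 1.23 (edgeR adjusted p = 0.97).

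**Figure D5:**
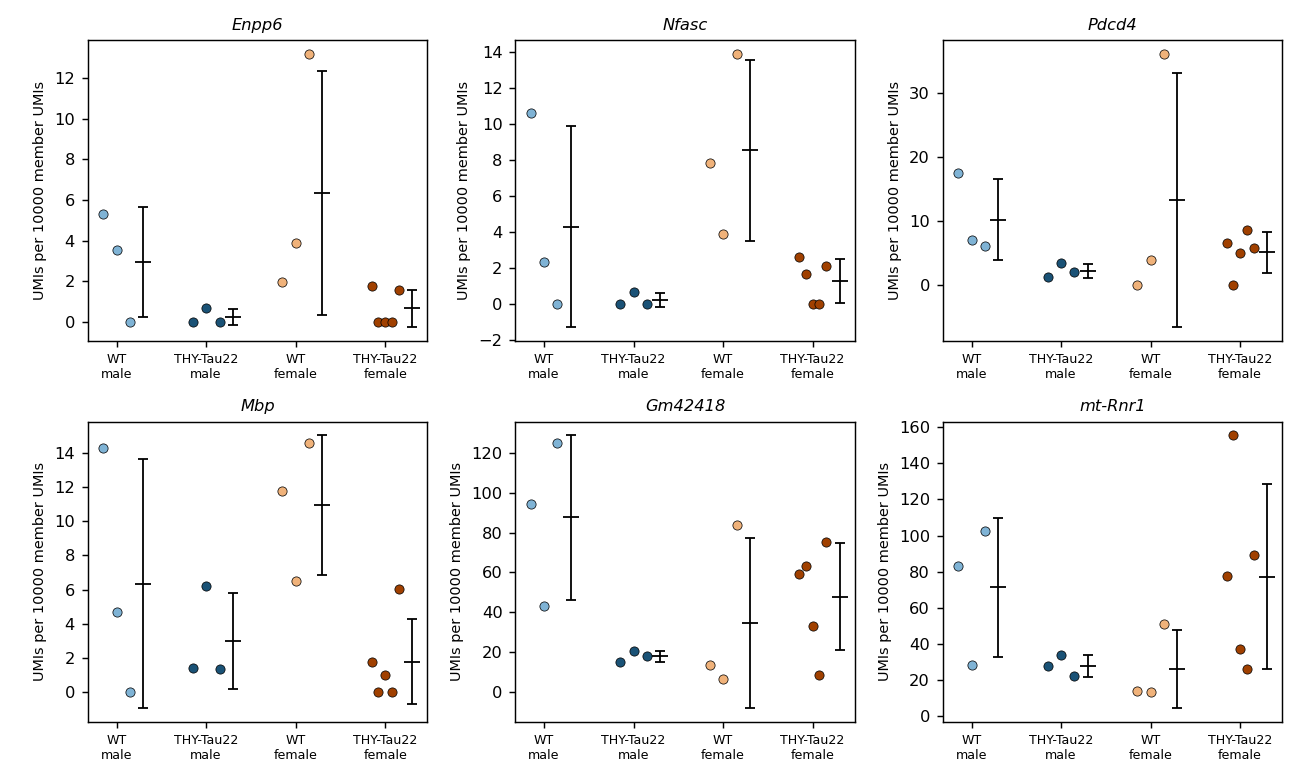
UMIs per 10000 member UMIs (y axis) of 6 genes in each of the 14 libraries (points), with the mean and SD of each group beside them. WT female 3 holds the highest value for Enpp6 (13.2), Nfasc (13.9) and Pdcd4 (36.1), and Gm42418 is at 15.0 to 20.7 in THY-Tau22 males and 43.4 to 125 in WT males.

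The gene called in males was Gm42418, a noncoding transcript that overlaps the ribosomal RNA repeat. It was at 94.3, 43.4 and 125 per 10000 in WT males and at 15.0, 20.7 and 18.4 in THY-Tau22 males, without overlap, with a fitted log2 difference of -2.20 ± 0.49 (edgeR adjusted p = 0.00681). With 1 library left out at a time, this male call held in 9 of 14 fits. It was lost without WT male 1, WT male 4 or any single THY-Tau22 male. In females Gm42418 was at 13.7, 6.51 and 83.6 in WT and 59.2, 63.3, 33.3, 8.57 and 75.2 in THY-Tau22. mt-Rnr1 was at 83.2, 28.1 and 102 in WT males, 27.3, 33.8 and 21.8 in THY-Tau22 males, 13.7, 13.0 and 51.0 in WT females and 77.6, 156, 37.3, 25.7 and 89.4 in THY-Tau22 females. The difference between the male and female effects was called for both, at -2.69 ± 0.65 for Gm42418 (edgeR adjusted p = 0.0148) and -2.86 ± 0.65 for mt-Rnr1 (adjusted p = 0.0106). With each of the 14 libraries left out in turn, this difference between the sexes was called in 4 fits for Gm42418 and in 6 for mt-Rnr1. Without WT female 3 the differences were -4.95 and -4.22.

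By lists, 1 of 8 committed genes tested (Enpp6) was called lower in females, and Enpp6 and, of the myelin genes, Mbp over both sexes, with list medians over both sexes of -1.10 and -1.04 against 0.09 for all genes. None of the precursor (21 tested, median 0.32), lineage transcription factor (8, 0.17), matrix and guidance (12, 0.05), receptor and channel (8, 0.20), inhibitory G protein and cyclic AMP (4, 0.15), cell cycle (1, 0.70), cytoskeleton (11, -0.07), lipid synthesis (1, -0.05), immediate early (6, 0.37), chaperone (8, 0.01), interferon and MHC (1, 0.71), mitochondrial mRNA (6, 0.78) and ribosomal protein (14, 0.03) lists had a called gene in any of the 4 contrasts. Of the other cell types, 4 astrocyte, 1 endothelial and 2 neuron genes were tested, 0 microglia or fibroblast genes, and none was called. The summed microglia level in members was 0.530 to 14.3 per 10000 in WT males, 2.07 to 4.77 in THY-Tau22 males, 1.39 to 13.0 in WT females and 1.01 to 3.95 in THY-Tau22 females, with 2 of its 10 genes at 0. P2ry12 and Cx3cr1 are among these genes and were limited by the rule. The part of the microglia genes in the results was not tested.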

How the data were processed

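Drop-seq UMI counts of dissociated cortex were deposited by the authors as 1 table of genes by 3000 barcodes per sample, aligned to mm10 per the labels. No further normalization had been applied, and totals were 1041675 to 2237505 UMIs in the 14 libraries used. Barcodes with 200 to 7000 detected genes were kept and no doublet caller was run. The members, gene lists and tests were chosen with earlier results of these data known.

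UMIs were summed per library and class. Genes were kept with filterByExpr (minimum count 3, minimum total 15) and tested with edgeR 4.0.16 (quasi-likelihood, Benjamini-Hochberg over all genes tested) in R 4.3.3. Class comparisons had the library as a block, and genotype comparisons had 1 mean per sex and genotype. TMM factors were set between the pooled sums of the groups over genes with at least 20 UMIs. This was changed from per-library factors after a test on simulated data, and the latter were kept as an alternative. Library shares were compared by exact permutation tests (scipy 1.17.1). Intervals are exact (Clopper-Pearson, 95%). Other-cell gates for the Gpr17 background needed at least 5 UMIs of their genes, apart from mature oligodendrocytes, and all held no precursor UMI.

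Named genes were, per class comparison, up to 12 called genes a direction with the smallest adjusted p that no gate used, per genotype contrast up to 5 a direction, and list members. Genes shown for committed members were chosen after values were seen. Alternatives were DESeq2 1.42.0, other scalings, filters and gates, thinning to 300 UMIs (mean of 20 draws), and leaving out single libraries. Results for some genes are not reported here.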

Additional observations from a re-analysis of the deposited data

Results flagged for a closer look

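In the 5 THY-Tau22 female libraries, Fyn was at 17.1 per 10000 UMIs in THY-Tau22 female 4, far from the others at 0 to 3.68, with a gap of 0.7852 of the group's range. Meg3 was at 0 in the same library and at 6.84 to 9.07 in the others, a gap of 0.7541 of the range. The limit for 5 samples is 0.71, 25 groups were checked, and chance passes it in about 1 group of 20. THY-Tau22 female 4 had 7 members and 3502 member UMIs, the fewest UMIs of any library. The genotype effects on mt-Rnr1 and Gm42418 differed between the sexes, by -2.86 and -2.69 (male minus female, log2 scale, edgeR adjusted p = 0.0106 and 0.0148). Without WT female 3 they were -4.22 and -4.95, and with each library left out in turn the calls held in 6 and 4 of 14 fits. Both RNAs lay on average below WT in THY-Tau22 males and above WT in THY-Tau22 females. Both are ribosomal or overlap ribosomal RNA, and their part in library composition was not tested.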

How the results depend on the processing

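Share differences (THY-Tau22 minus WT) turned sign for the share of kept barcodes in females after thinning to 300 UMIs (-0.0551) and for the Gpr17 share over both sexes without the MB22 libraries (-0.328). With each library left out in turn, kept shares differed by 0.0361 to 0.302 in males, -0.0862 to 0.166 in females and 0.0338 to 0.181 over both, and Gpr17 shares by 6.00 to 19.6, -13.7 to 0.313 and -1.11 to 6.83.

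Against Gpr17-negative precursors the 11 calls became 4 with the default filter, 0 with at least 2 Gpr17 UMIs (2 libraries; 76 at an unadjusted p under 0.05), 3 without mixed barcodes, 5 without Enpp6 members, 6 with at least 2 precursor genes in both classes, 5 with no library block, and 5 to 11 without 1 library. They fell to 5 without WT male 2, to 6 without WT female 1, WT female 3 or THY-Tau22 female 5, and to 7 without THY-Tau22 male 2. Snhg11 turned to 0.19 and Ppp3ca to 0.010 without mixed barcodes. Against mature oligodendrocytes the 1192 calls became 626 with the default filter, 2536 with no filter beyond 5 UMIs, 167 with at least 2 Gpr17 UMIs, and 974 to 1181 without 1 library.

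Calls by genotype are given in the order males, females, both sexes and interaction, against 1, 5, 6 and 2 as reported. They were 0, 0, 0 and 0 with the default filter, with DESeq2, with at least 2 Gpr17 UMIs and without mixed barcodes. They were 1, 1, 3 and 1 with no filter beyond 5 UMIs, 1, 7, 10 and 2 with library totals, 0, 5, 6 and 0 with per-library TMM factors, and 1, 0, 0 and 2 without Enpp6 members. They were 0, 10, 8 and 0 with all 16 tables as labelled, 0, 8, 14 and 0 with at least 10 members per library, 2, 9, 5 and 2 with the shared library kept as a WT male and 2, 8, 9 and 0 as a THY-Tau22 male. Without the MB22 libraries there were 4, 0 and 2 in females, both sexes and interaction. Without 1 library they ran from 0 to 2, 0 to 10, 0 to 13 and 0 to 2, with 0 in females without THY-Tau22 female 3. The causes were not tested. No paired analysis was possible because the labels pair no samples across groups and replicate numbers only name the libraries. 5 to 32 members per library limit what can be detected.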
